A study of Mus musculus with 16 samples.

Results

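RNA of the whole mouse hypothalamus was compared between 4 input pools labelled with a Lepr deletion in Pnoc-expressing cells and 4 control input pools. These 8 libraries were chosen by their labels from the 16 of the series, and the comparison covered the 13791 genes with a mean level of at least 1 CPM (counts per library scaled to a common total) over them. Just inside that filter lay AI849053 at 1.0001 and Pcdhb5 at 1.0003 CPM, and just outside it Barx2 at 0.9999 CPM. The controls are labelled Lepr-flox in the genotype field and WT in the library name, and the other group is labelled as a Pnoc-specific deletion of Lepr. Both groups also carried the Cre-dependent ROSA-STOP-L10a transgene, which puts a GFP tag on ribosomal protein L10a in cells with Cre, and both were on a C57Bl/6N background. The labels do not state separately that the controls carry the Pnoc-driven Cre, without which they would have no tagged ribosomes. All animals were on chow and were sampled random fed in the morning, at 12 weeks by the treatment protocol and at 10 to 12 weeks by the extraction protocol. Each library holds the pooled tissue of 4 animals. The sources used here do not state the sexes of the animals or the floxed part of Lepr. An input library is made from a small part of the cleared lysate taken before tagged ribosomes are precipitated, so it holds RNA of every cell type in the dissected tissue, of which Pnoc-expressing cells are one part. The same lysate gave the pulldown library of a pool, which is used below only as a second readout of the genes found in input.

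The leptin receptor is a cytokine receptor that signals through JAK2 and STAT3 and reports the size of body fat stores to the brain. In the hypothalamus it is known for acting on neurons that make feeding peptides, among them the AgRP and NPY neurons and the POMC neurons of the arcuate nucleus. Pnoc encodes prepronociceptin, the precursor of the opioid-like peptide nociceptin, and PNOC neurons of the arcuate nucleus are GABAergic cells that promote feeding. A deletion confined to these cells leaves Lepr intact in every other cell of the tissue.

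The 8 libraries held 65066280 to 74726368 estimated counts each, and between 22797 and 23357 genes had counts. Libraries of one group differed by 10.8 to 48.7 times counting noise (chi-square per degree of freedom), so no library was a copy of another. The tissue label was checked against markers. Neuronal genes such as Slc17a6 and Gad2 were well detected. Of the peptide genes, 11 of 13 arcuate and 18 of 25 other hypothalamic ones were above the filter. Below it were 7 of 10 pituitary markers and 5 of 12 cortex and hippocampus markers. Above it were 9 of 11 striatum and pallidum and 9 of 14 thalamus and habenula markers. These lists thus do not set the hypothalamus apart from every neighbouring region. Pools 1 and 5 stood apart. On the first principal component, which held 29.1% of the variance, control pool 1 lay at -3.69 while the other controls lay at 11.6 to 24.1, and deletion-labelled pool 5 lay at -1.77 while the others of its group lay at -20.5 to -7.58. The Y-linked gene Ddx3y was at 19 to 39.6 CPM in control and 30.9 to 66.4 in deletion-labelled pools, and the X-inactivation RNA Xist at 4.31 to 5.87 CPM in control and 1.98 to 4.49 in deletion-labelled pools; the part of this spread in other results was not tested.

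Lepr itself was not lower in the pools labelled with its deletion. Its level was 3.83, 4.33, 2.96 and 3.38 CPM in the controls (pools 1 to 4) and 5.02, 4.44, 6.88 and 4.02 CPM in the deletion-labelled pools (5 to 8). All CPM values here are scaled by trimmed mean of M-values (TMM) factors. Pools 5, 6 and 7 were above every control and pool 8 was below control pool 2, and the log2 fold change of 0.49 (SE 0.173) had an adjusted p of 0.21. The groups are therefore named by their labels throughout, and every direction below is that of the pools labelled as deletion against the controls. The count covers the whole gene on chromosome 4 (101717137 to 101815352, GRCm38), so transcripts that lack a floxed part but are still made would be counted, and the value checks neither the deletion nor the labels. In such bulk samples fewer cells of a type and less RNA per cell cannot be told apart. Leprot, which shares its first exons with Lepr, was at 7.34, 7.65, 7.38 and 9.67 CPM in control pools and 8.63, 8.8, 8.7 and 7.72 CPM in deletion-labelled pools. Pnoc was little above the filter in whole tissue, at 2.29 ± 0.167 CPM in control and 2.16 ± 0.245 CPM in deletion-labelled pools (SD, n = 4). Rpl10a, the ribosomal protein gene used for the tag, was at 107 ± 3.2 and 104 ± 3.78 CPM (SD, n = 4). None of these 3 genes passed the test, with adjusted p of 0.739, 0.818 and 0.743.

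Of the 13791 genes tested, 40 passed (0.29%) at an adjusted p under 0.05 in edgeR's quasi-likelihood test. Of these, 22 were higher (0.16% of those tested) and 18 were lower (0.131%) in the deletion-labelled pools. With library totals in place of TMM factors, 183 genes passed and 89.1% of them were higher, against 55.0% in the fit reported here, so the balance of directions depends on the scaling. Most changes were small: the median size among the 40 was 0.51 on the log2 scale, 8 genes rose by over 2-fold and 1 fell by over 2-fold. At an unadjusted p under 0.05 there were 2224 genes. In each of the 40 genes every deletion-labelled pool lay on one side of every control pool, pools 1 and 5 included, which was so for 7.77% of all genes tested. The number that pass is very sensitive to those pools: it was 456 without control pool 1, 387 without deletion-labelled pool 5 and 2060 without both, or 3.31%, 2.81% and 14.9% of the genes tested. Leaving out any of the other pools gave 18 to 33. Leaving out both together was chosen after the data were seen, and they are the pools nearest the other group on the first principal component. Counts from that fit, here and below, are therefore no separate support for a gene or list. Of the 40 genes, 15 passed in each of the 8 fits that left out one pool, the other 25 passed in 2 to 6 of them, and all 40 passed without pools 1 and 5. Of the 40, 30 have ordinary gene symbols, 15 higher and 15 lower. Acer2, Efcab7, Tusc1, Zscan26 and the predicted genes named below are outside the rule for naming genes and were chosen after their values were seen.

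**Figure D1:**
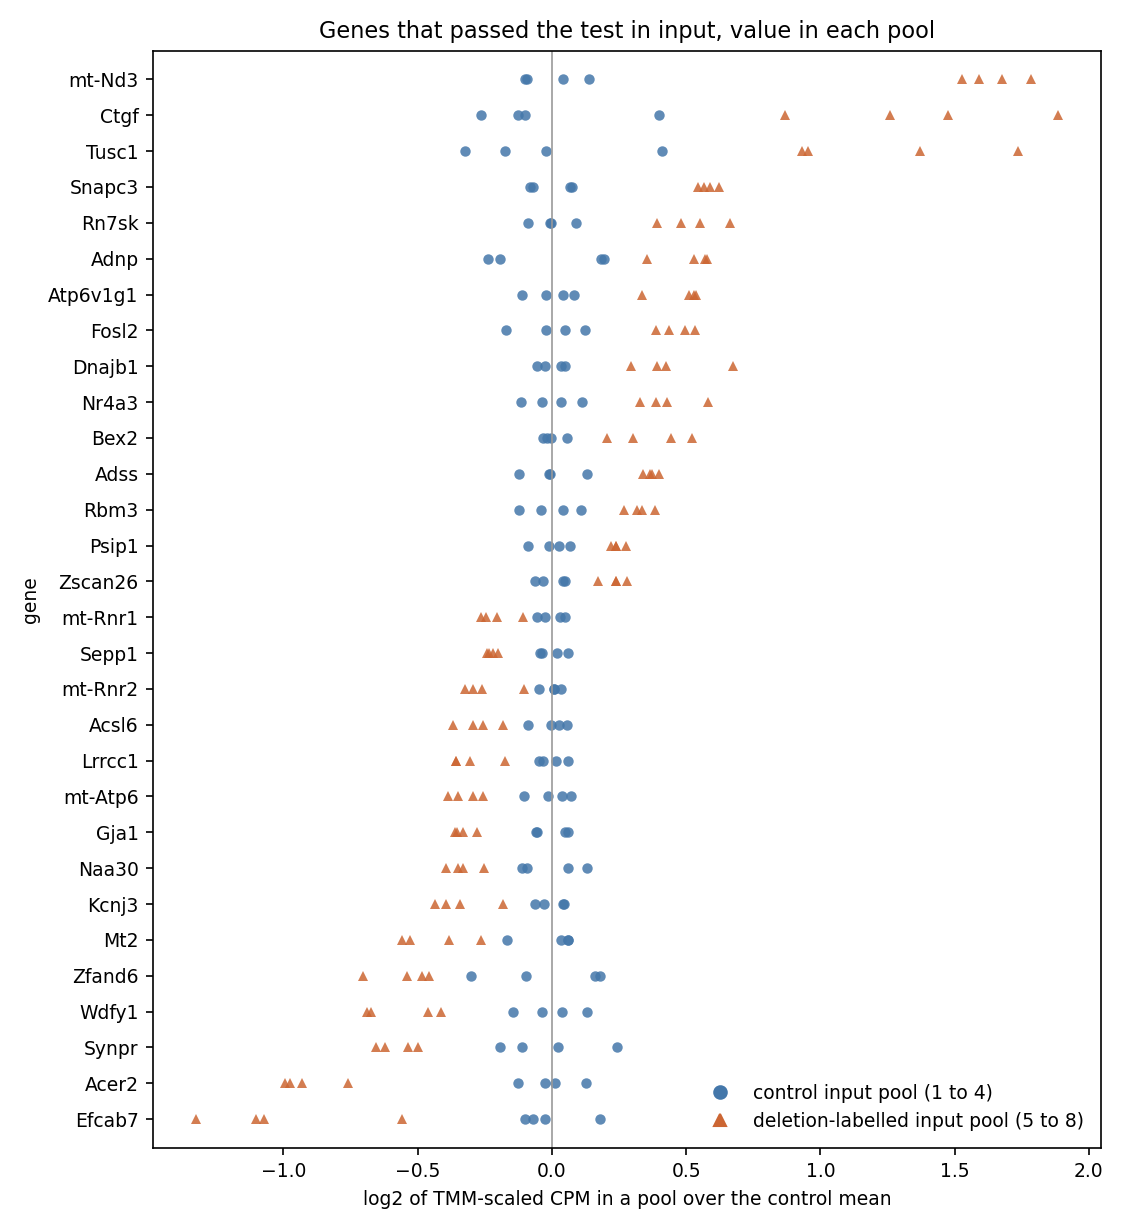
Each row is one of the 30 genes with an ordinary symbol that passed in input, and the x axis is the log2 ratio of the TMM-scaled CPM of a pool to the control mean. Circles are control pools and triangles deletion-labelled pools; in every row the triangles lie to one side of the circles, from mt-Nd3 at the top (log2 fold change 1.65) to Efcab7 at the bottom (-0.98).

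The smallest p belonged to a mitochondrially encoded mRNA. mt-Nd3, a subunit of respiratory complex I, was at 92.6, 78.5, 86.5 and 78.9 CPM in control pools and 253, 243, 290.0 and 269 CPM in deletion-labelled pools. The lowest deletion-labelled pool was far above the highest control pool, and the log2 fold change was 1.65 (SE 0.0667, adjusted p = 6.52e-08). Most other mitochondrial RNAs had values on the other side of 0. mt-Atp6, a subunit of the ATP synthase, was at 2443, 2389, 2304 and 2163 CPM in control and 1944, 1780, 1898 and 1823 CPM in deletion-labelled pools and fell, with a log2 fold change of -0.32 (SE 0.0446, adjusted p = 0.00831). Of the 13 mitochondrial mRNAs, 11 had fold changes below 0, but apart from mt-Nd3 and mt-Atp6 none passed. mt-Atp8 and mt-Nd6 had log2 fold changes of -0.28 and -0.32 (adjusted p = 0.0578 and 0.0724). mt-Nd4l, named because it is the second gene with a value above 0, had a log2 fold change of 0.21 (adjusted p = 0.63) that turned to -0.057 without pool 5. The median of the 13 was -0.24, beside -0.0016 over all genes tested. Their summed level was 43570 to 45940 CPM in control and 35560 to 42150 CPM in deletion-labelled pools, with pool 5 the highest of its group. The groups were apart in this sum only. The mean log2 level of the 13 was 10.47 to 10.54 in control and 10.3 to 10.59 in deletion-labelled pools, with pool 5 the highest. With pools 1 and 5 left out, where 9.06% of all genes passed as lower, 11 of the 13 did so and mt-Nd3 still rose.

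Both mitochondrial ribosomal RNAs fell as well, mt-Rnr2 by 0.24 and mt-Rnr1 by 0.20 on the log2 scale (adjusted p = 0.0363 and 0.0421). Neither passed when a pool other than 1 or 5 was left out, nor with counts rescaled for length. Together they made up 27.0%, 27.4%, 28.1% and 26.8% of counts in control pools 1 to 4 and 25.9%, 23.8%, 23.7% and 24.5% in deletion-labelled pools 5 to 8. The means were 27.3% ± 0.581 and 24.5% ± 0.973 (SD, n = 4), a difference of -2.82 percentage points with no overlap (exact permutation test, two-sided, p = 0.0286, the smallest that 4 against 4 allows). A share this large moves every other gene's share of the library, and with mitochondrial genes removed before scaling 33 genes passed, all of them among the 40. Of the 40, mt-Nd3, mt-Atp6, mt-Rnr1 and mt-Rnr2 were removed in that fit and could not pass. Gm28438, the 1 gene that fell by over 2-fold, was at 62.7, 50.9, 48.9 and 49.1 CPM in control pools and 0, 2.49, 0.873 and 2.51 CPM in deletion-labelled pools, with a log2 fold change of -5.13 (SE 0.425, adjusted p = 6.17e-05).

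Predicted genes also had the largest fold changes in the other direction. Gm13301 had no counts in any control pool and 2.64, 3.45, 1.96 and 3.26 CPM in the deletion-labelled pools, whose mean was at least 59.4-fold higher than the floor of 3 counts in a single control library. Gm17167 was at 0.518, 0.46, 0.383 and 0.665 CPM in control and 11.1, 7.67, 7.27 and 6.95 CPM in deletion-labelled pools, a log2 fold change of 4.02 (SE 0.203, adjusted p = 5.01e-07). In these genes pools 1 and 5 went with their own groups without exception. Near-identical copies share reads with many predicted genes, so how the authors' counting divided reads among copies is uncertain for Gm13301, Gm17167 and Gm28438 alike. mt-Nd3 rose in the pools where Gm28438 fell, and whether a division of reads has a part in that was not tested.

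Chromosome 4, which carries Lepr, held 10 of the 34 genes that passed and have a position in the annotation used. That is 1.21% of the 825 genes tested there, beside 0.192% of the 12532 genes tested on other chromosomes. Nearest to Lepr was Efcab7, which encodes a ciliary EF-hand protein, at 1.9 Mb. It was at 5.28, 5.12, 6.09 and 5.02 CPM in control pools and 2.5, 3.65, 2.15 and 2.56 CPM in deletion-labelled pools and fell, with a log2 fold change of -0.98 (adjusted p = 0.0224). Acer2, an alkaline ceramidase that releases sphingosine from ceramide, lay 14.9 Mb away and was at 3.88, 3.98, 4.31 and 3.61 CPM in control and 1.98, 2.07, 2.33 and 2.01 CPM in deletion-labelled pools. The groups were tight and well apart, and the log2 fold change was -0.91 (SE 0.126, adjusted p = 0.00831).

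The other 8 genes on chromosome 4 rose. Tusc1, a candidate tumour suppressor 8.43 Mb from Lepr, was low throughout, at 0.708 to 1.18 CPM in control and 1.69 to 2.95 in deletion-labelled pools, and rose with a log2 fold change of 1.29 (adjusted p = 0.0408). Snapc3, a subunit of the complex that starts transcription of small nuclear RNA genes, was at 22.7, 22.6, 20.5 and 20.4 CPM in control pools and 33.2, 31.9, 32.4 and 31.4 CPM in deletion-labelled pools. Pools of a group lay close together, and the log2 fold change was 0.58 (SE 0.0537, adjusted p = 0.00019). The neighbouring Psip1, a chromatin-binding coactivator, was at 188 to 209 CPM in control and 233 to 242 in deletion-labelled pools (log2 fold change 0.24, adjusted p = 0.0333). Snapc3 and Psip1 overlap in the annotation, at 83415711 to 83473019 and 83455680 to 83486463, and the strand setting of the counting was not given, so reads of either could be counted for both. Atp6v1g1, a subunit of the proton pump that acidifies lysosomes and synaptic vesicles, lay 38.2 Mb away and was at 69.7, 71.9, 66.9 and 62.8 CPM in control and 85.6, 98.4, 98 and 96.5 CPM in deletion-labelled pools (log2 fold change 0.48, adjusted p = 0.00233). Farthest away were Nr4a3 at 53.7 Mb and 3 predicted genes at 59.3 to 59.8 Mb, Gm3883, Gm21093 and Gm20938, whose log2 fold changes were 0.99, 1.00 and 1.14. Those 3 genes lie among duplicated sequences, so their single values are uncertain. All 10 genes lay on one side of Lepr, toward the start of the chromosome. None of the 366 genes tested 20 to 60 Mb beyond it on the far side passed. With 0.29% of all genes passing, 0 of 366 does not set the far side apart. On the same side as the 10 genes, none of the 58 genes tested 80 to 110 Mb away passed, nor of the 17 at 70 to 80 Mb. At an unadjusted p under 0.05 were 15.6% of the 366 genes and 13.8% to 27.3% of those in other stretches of the chromosome.

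**Figure D2:**
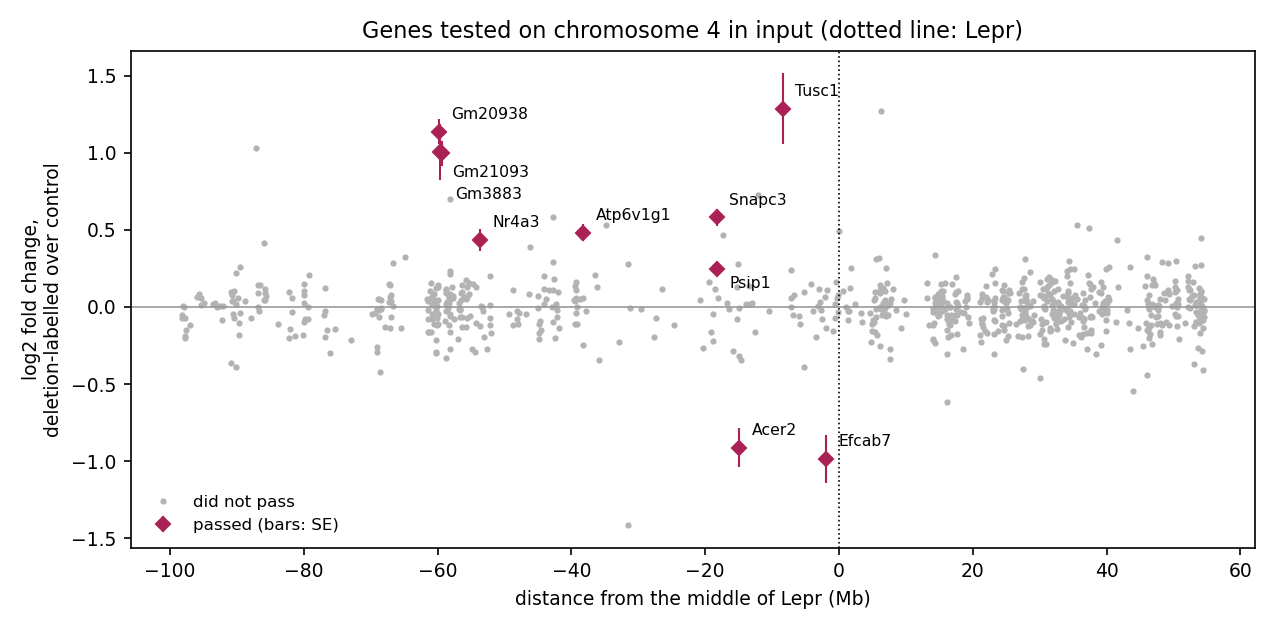
Log2 fold change in input (y axis) of the 825 genes tested on chromosome 4 against their distance from the middle of Lepr in Mb (x axis, dotted line at Lepr). Diamonds are the 10 genes that passed, with bars of 1 SE, and lie between -59.8 and -1.9 Mb; grey points did not pass.

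Of the genes that rose, 4 belong to the lists of heat shock and immediate early genes, Dnajb1, Fosl2, Nr4a3 and Ctgf. Heat shock genes encode chaperones switched on by heat shock factor when proteins misfold, and immediate early genes encode transcription factors and regulators that neurons switch on within minutes of activity. Promoters of 3 heat shock genes, as RefSeq gives them for GRCm38.p6, are shown because Dnajb1 passed and Hspa1b and Hspb1 had the largest fold changes of that list. Each run holds the 250 bases before the gene's start, 5′ to 3′ on the gene's strand. Capitals mark the inverted heat shock repeats GAANNTTC or TTCNNGAA, each of which reads the same on both strands.
Dnajb1, chr8:83607925-83608174, plus strand: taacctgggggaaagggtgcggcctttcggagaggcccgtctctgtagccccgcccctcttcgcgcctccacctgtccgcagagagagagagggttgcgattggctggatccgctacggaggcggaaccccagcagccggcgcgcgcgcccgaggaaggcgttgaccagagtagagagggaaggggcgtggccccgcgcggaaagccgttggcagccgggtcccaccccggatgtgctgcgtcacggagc
Hspa1b, chr17:34959239-34959488, minus strand: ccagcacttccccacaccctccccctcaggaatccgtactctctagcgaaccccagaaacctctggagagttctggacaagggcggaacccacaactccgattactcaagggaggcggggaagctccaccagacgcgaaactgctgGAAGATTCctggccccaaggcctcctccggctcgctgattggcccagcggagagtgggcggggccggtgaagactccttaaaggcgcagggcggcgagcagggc
Hspb1, chr5:135887669-135887918, plus strand: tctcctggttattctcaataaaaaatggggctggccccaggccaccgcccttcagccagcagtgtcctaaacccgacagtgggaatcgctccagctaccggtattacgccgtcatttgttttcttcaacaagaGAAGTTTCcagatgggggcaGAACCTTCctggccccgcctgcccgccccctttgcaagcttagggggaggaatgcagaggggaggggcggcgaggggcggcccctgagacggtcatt
The repeat occurred 1 time in Hspa1b and 2 times in Hspb1, and not in this window of Dnajb1. Among the 10 heat shock genes with a promoter in the table, 6 held it, beside 9.69% of the 10069 promoters of genes tested. These are matches of letters and do not show that a factor binds.

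Dnajb1, the co-chaperone that brings misfolded proteins to HSP70, was at 158, 157, 147 and 150.2 CPM in control pools and 201, 205, 244 and 188 CPM in deletion-labelled pools. All 4 deletion-labelled pools were above the controls, pool 7 most, and the log2 fold change was 0.45 (SE 0.0685, adjusted p = 0.0163). It passed in 5 of the 8 fits that left out one pool. Of the 15 heat shock genes, all tested, 13 had fold changes above 0, with a median of 0.16 beside -0.0016 over all genes, of which 49.4% were above 0. Dnajb1 was the one that passed. The inducible HSP70 gene Hspa1b was at 0.695, 0.952, 0.712 and 0.65 CPM in control pools and 1.53, 1.55, 2.25 and 1.1 CPM in deletion-labelled pools (log2 fold change 1.10, adjusted p = 0.0725). Its near-identical neighbour Hspa1a was at 5.92, 5.74, 4.39 and 5.12 and 6.85, 6.88, 10.9 and 6.24 CPM (log2 fold change 0.55, adjusted p = 0.172), and the division of reads between the pair is uncertain. Hspa8, the constitutive HSP70, differed by 0.15 and the small heat shock gene Hspb1 by 0.69 on the log2 scale, neither passing (adjusted p = 0.166 and 0.206). When pools 1 and 5 were left out, where 5.88% of all genes passed as higher, 10 of the 15 did so.

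Fosl2, an AP-1 transcription factor subunit, was at 23.2, 22.1, 19.9 and 24.4 CPM in control pools and 32.5, 29.3, 31.5 and 30.3 CPM in deletion-labelled pools. It passed in all 8 fits that left out one pool, with a log2 fold change of 0.46 (SE 0.0653, adjusted p = 0.00883). Nr4a3, an orphan nuclear receptor, was at 17, 16.1, 15.3 and 17.9 CPM in control and 21.7, 20.8, 22.3 and 24.8 CPM in deletion-labelled pools (log2 fold change 0.43, adjusted p = 0.023). Ctgf, a secreted matrix protein made by fibroblasts and vascular cells as well as some neurons, was at 1.69, 1.06, 1.19 and 1.17 CPM in control and 3.56, 3.06, 4.72 and 2.33 CPM in deletion-labelled pools, a log2 fold change of 1.42 (adjusted p = 0.0224). The list as a whole had no direction: of 18 immediate early genes tested of 23 listed, 9 had fold changes above 0 and 9 below 0, and the median was -0.0020. Without pools 1 and 5, 4 passed as higher and 4 as lower, beside 5.88% and 9.06% of all genes. Fos and Npas4, which neuronal firing induces most directly, were named after their values were seen. Fos was at 15.2 to 19 CPM in control and 10.8 to 16.4 in deletion-labelled pools and Npas4 at 2 to 5.04 CPM in control and 1.86 to 3.09 in deletion-labelled pools, with log2 fold changes of -0.35 and -0.55 (adjusted p = 0.207 and 0.304). After the 3 that passed, Ier5 had the next smallest p, at 19 to 21.3 CPM in control and 21.5 to 24.5 in deletion-labelled pools (adjusted p = 0.138).

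Among the remaining genes that rose, Rn7sk had the smallest p. It is the 7SK small nuclear RNA, which holds the elongation factor P-TEFb inactive, and it was at 156, 177, 165 and 166 CPM in control pools and 232, 243, 263 and 218 CPM in deletion-labelled pools (log2 fold change 0.53, SE 0.0582, adjusted p = 0.00129). Adss, an enzyme of AMP synthesis, was at 71.7, 71.6, 78.9 and 66.3 CPM in control and 93.4, 93, 95 and 91.3 CPM in deletion-labelled pools (log2 fold change 0.37, adjusted p = 0.00831). Rn7sk and Adss passed in all 8 fits that left out one pool. Rbm3, an RNA-binding protein induced by cold, was at 34.7 to 40.7 CPM in control and 45.5 to 49.3 in deletion-labelled pools (log2 fold change 0.33, adjusted p = 0.0299). Bex2, a small brain-enriched adaptor protein, was at 286 to 304 CPM in control and 337 to 419.9 in deletion-labelled pools, with a log2 fold change of 0.37 (adjusted p = 0.0239). Zscan26, a zinc finger gene, and Adnp, a homeobox protein of a chromatin-remodelling complex, rose by 0.23 and 0.51 on the log2 scale (adjusted p = 0.0444 and 0.0487). Adnp was at 89, 66.5, 68.6 and 89.6 CPM in control pools and 100.2, 117, 113 and 117 CPM in deletion-labelled pools, with control pools 2 and 3 well below pools 1 and 4. Adnp lies within the span of the lncRNA gene Gm20716 on chromosome 2, which passed as lower (log2 fold change -0.50, adjusted p = 0.0386) and was at 111, 134, 130.0 and 110.5 CPM in control and 96.7, 75, 78.2 and 93.5 CPM in deletion-labelled pools. The sum of both genes was 198.5 to 200.9 CPM in control and 191.3 to 210.1 CPM in deletion-labelled pools, so the groups overlapped in it and how reads were divided between the pair is uncertain.

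Genes that fell outside chromosome 4 and the mitochondrial genome had diverse roles. Gja1, the main gap junction protein of astrocytes (connexin 43), was at 82.4, 82.7, 88.9 and 89.5 CPM in control pools and 70.7, 68.3, 67.2 and 66.9 CPM in deletion-labelled pools. The log2 fold change was -0.33 (SE 0.0446, adjusted p = 0.00756), and it passed in all 8 fits that left out one pool. Wdfy1, an endosomal protein of Toll-like receptor signalling, was at 72.5, 77.4, 68.9 and 64 CPM in control and 53, 43.9, 44.3 and 51.3 CPM in deletion-labelled pools (log2 fold change -0.55, adjusted p = 0.00698), and it overlaps Mrpl44, which did not pass. Synpr, the synaptic vesicle protein synaptoporin, was at 19.5, 24.9, 21.4 and 18.4 CPM in control and 14.9, 13.4, 13.7 and 14.5 CPM in deletion-labelled pools (log2 fold change -0.58, adjusted p = 0.0163). Kcnj3 encodes GIRK1, a potassium channel opened by inhibitory G-protein-coupled receptors. It was at 66.5, 66.4, 61.7 and 63.2 CPM in control and 56.8, 49, 47.6 and 50.8 CPM in deletion-labelled pools, with pool 5 nearest the controls, and a log2 fold change of -0.34 (adjusted p = 0.0327).

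Mt2, a zinc-binding metallothionein made largely by astrocytes, was at 50.3, 43.8, 51.3 and 51.2 CPM in control pools and 33.3, 34.1, 37.7 and 40.9 CPM in deletion-labelled pools (log2 fold change -0.43, SE 0.0719, adjusted p = 0.0299). Sepp1, the selenium carrier selenoprotein P, was at 179 to 192 CPM in control and 155 to 160.0 in deletion-labelled pools and fell by 0.23 on the log2 scale (adjusted p = 0.0341). Acsl6, an acyl-CoA synthetase that retains omega-3 fatty acids in brain, fell by 0.27. Naa30, the catalytic subunit of an N-terminal acetyltransferase, fell by 0.33, Lrrcc1, a centrosomal protein, by 0.30, and Zfand6, a ubiquitin-binding zinc finger protein, by 0.54 on the log2 scale (adjusted p = 0.0444, 0.0487, 0.0363 and 0.0487). Of these 6 genes only Mt2 passed in as many as 4 of the 8 fits that left out one pool.

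Neuronal receptor and channel genes had mostly small values below 0, with 1 that passed. Of 18 pan-neuronal genes, 11 had fold changes below 0 and 7 above 0, with a median of -0.013 and none passing. GABAergic and glutamatergic neuron genes had medians of -0.026 and -0.058, and none of them passed. All 36 GABA and glutamate receptor genes tested of 37 listed had fold changes below 0, with a median of -0.18, although none passed; with library totals 33 of the 36 were below 0. Gabra4, a subunit of the GABA-A receptor, was at 22.9 to 25.3 CPM in control and 19.8 to 21.2 in deletion-labelled pools. Gabra2, another such subunit, was at 138 to 181 CPM in control and 101 to 151 in deletion-labelled pools. Only Gabra4 of the pair had no overlap between groups. Gabbr2, a subunit of the metabotropic GABA-B receptor, was at 138 to 174 CPM in control and 117 to 145 in deletion-labelled pools. The presynaptic glutamate receptor gene Grm2 was at 5.29 to 8.08 CPM in control and 3.61 to 5.44 in deletion-labelled pools. The unadjusted p of these 4 genes was 0.00123, 0.00193, 0.00333 and 0.00356, and the adjusted p was 0.114 to 0.15. Among 45 ion channel genes tested of 46 listed, 41 had fold changes below 0, the median was -0.18, and Kcnj3 alone passed. Kcnj9, which encodes the GIRK3 subunit, was at 35.1 to 37.9 CPM in control and 29.4 to 33.4 in deletion-labelled pools. The cation channel gene Trpm3 was at 69.8 to 75.2 CPM in control and 57.3 to 69.7 in deletion-labelled pools.

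Genes whose products mature and store peptides had values of similar size. Of 18 peptide processing and dense-core vesicle genes 16 had fold changes below 0, with a median of -0.18 and none passing. With pools 1 and 5 left out, 12 passed as lower and 1 as higher, beside 9.06% and 5.88% of all genes. Pcsk1, the prohormone convertase that cuts POMC and other precursors, was at 16.6, 23.9, 23.8 and 24.9 CPM in control pools and 18.6, 17.2, 18.1 and 15.9 CPM in deletion-labelled pools. Control pool 1 was as low as the deletion-labelled pools. The related convertase Pcsk5, the amidating enzyme Pam and the nesfatin precursor Nucb2 had log2 fold changes of -0.32, -0.21 and -0.29 (adjusted p = 0.15, 0.185 and 0.201).

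The summed level of the receptor genes was 2963, 3558, 3416 and 3785 CPM in controls, pools 1 to 4, and 3487, 2890, 2844 and 2905 CPM in deletion-labelled pools 5 to 8. Pool 1 lay with pools 6 to 8 and pool 5 lay with pools 2 to 4. The ion channel genes were arranged likewise, at 1987, 2360, 2221 and 2447 CPM in control and 2314, 1858, 1860 and 1906 CPM in deletion-labelled pools. When pools 1 and 5 were left out, 27 of 36 receptor genes and 33 of 45 ion channel genes passed as lower. In the same fit 9.06% of all genes passed as lower. The pools left out are those that sat with the other group in these sums, so these counts add no separate support. Many genes of these lists are long. Over all genes the median log2 fold change went from 0.034 in the quartile with the shortest effective transcripts to -0.039 in the quartile with the longest, and 22 of the 36 receptor genes and 31 of the 45 channel genes were in the longest quartile. The mean log2 level of the longest quartile minus that of the shortest was 1.38 to 1.47 in control pools, 1.44 in pool 5 and 1.32 to 1.34 in pools 6 to 8. The part of transcript length in the list values of single pools was not tested.

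**Figure D3:**
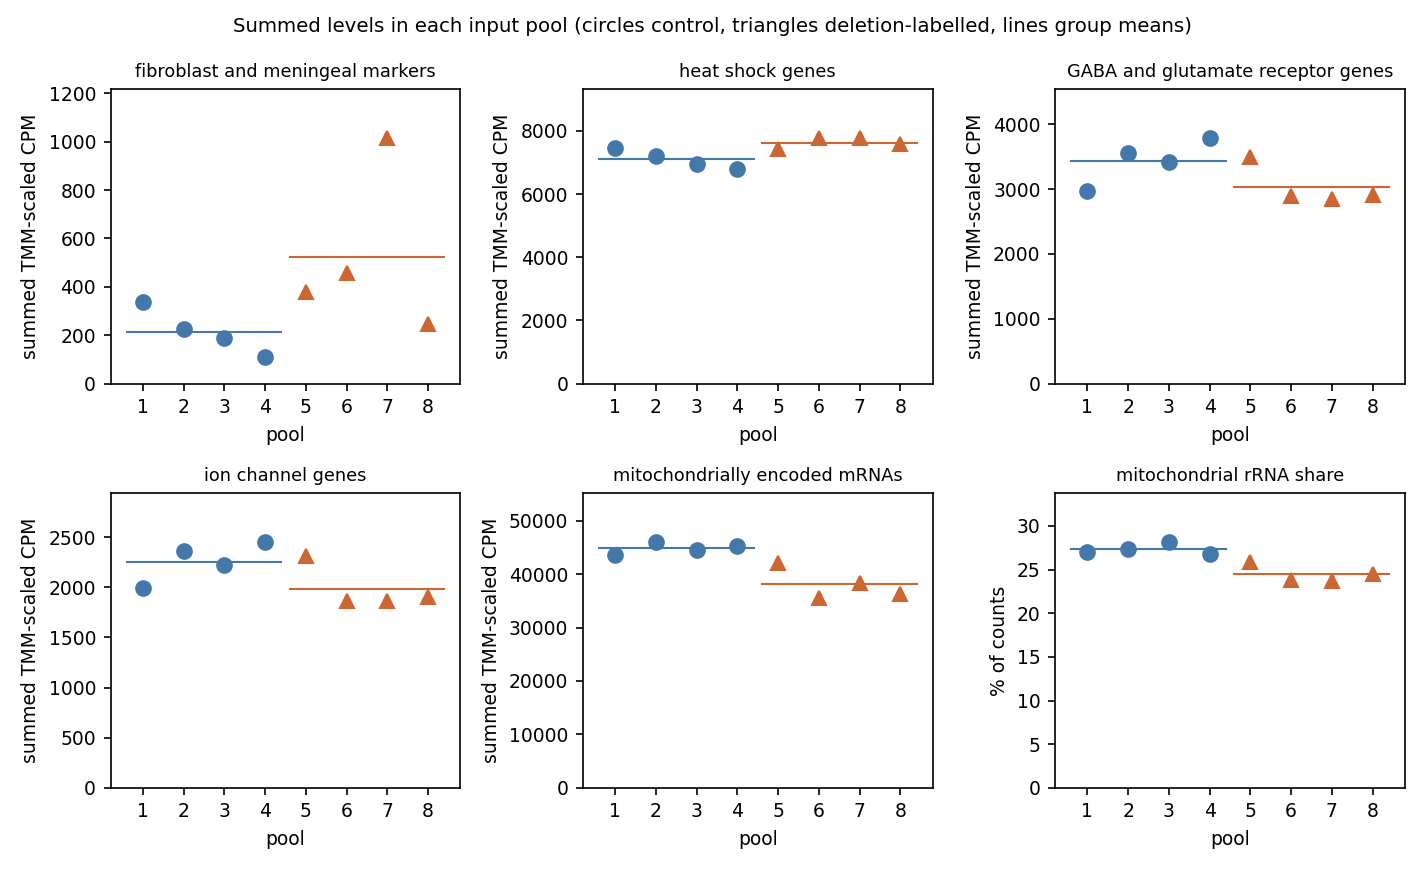
Summed TMM-scaled CPM of 5 gene lists, and the share of counts in mitochondrial ribosomal RNA (y axes), for each of the 8 input pools (x axes); circles are control pools, triangles deletion-labelled pools and lines group means. Pools 1 and 5 sit with the other group for the receptor genes (2963 and 3487 CPM) and the ion channel genes (1987 and 2314 CPM), while in both mitochondrial panels the groups do not overlap and pool 5 (42150 CPM and 25.9%) is the deletion-labelled pool nearest the controls.

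Markers of meningeal fibroblasts had the highest median of any list and varied most among pools. All 9 fibroblast and meningeal markers tested of 10 listed had fold changes above 0, with a median of 1.12, and none passed. Ptgds, a prostaglandin D synthase made in the meninges and also by oligodendrocytes, was at 199.7, 144, 121 and 66.9 CPM in control pools and 239, 262, 720.4 and 148 CPM in deletion-labelled pools. Igf2, a growth factor of meninges and vessels, was at 112, 67.9, 52.6 and 31.3 CPM in control and 113, 161, 246 and 80.2 CPM in deletion-labelled pools. Pool 7 was the highest in both genes, while pool 8 overlapped the controls. The fibrillar collagen genes Col1a1 and Col3a1 had log2 fold changes of 1.12 and 1.40 (adjusted p = 0.166 and 0.179). The summed level of the list was 337.5, 227.2, 187.5 and 108.8 CPM in controls, pools 1 to 4, and 377.5, 456.9, 1015 and 246.3 CPM in deletion-labelled pools 5 to 8. Without pools 1 and 5 all 9 passed, in a fit where 14.9% of all genes did. Crym, one of the 9, is also a tanycyte marker, and Lum was below the filter.

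Endothelial and mural markers were low, and 7 of the 17 listed, among them Cldn5, Pecam1 and Vwf, were below the filter. All 10 tested had fold changes above 0, with a median of 0.34, and none passed; their summed level was 36.3 to 45.8 CPM in control and 37.6 to 64.6 CPM in deletion-labelled pools. The drug transporter gene Abcb1a, the VEGF receptor gene Kdr and the endothelial cadherin gene Cdh5 had log2 fold changes of 1.05, 0.72 and 0.99 (adjusted p = 0.183, 0.237 and 0.258). Genes of macrophages and antigen presentation included some with values as high. Mrc1, the mannose receptor of perivascular macrophages, was at 1.73, 1.13, 1.53 and 1.13 CPM in control pools and 3.03, 2.44, 3.68 and 2.09 CPM in deletion-labelled pools, with no overlap (log2 fold change 1.02, adjusted p = 0.0724). H2-Aa and Cd74, which present antigen on class II molecules, had log2 fold changes of 1.19 and 1.01, and the lysozyme gene Lyz2 and osteopontin gene Spp1 0.87 and 1.40, none of which passed. Of 20 interferon and antigen presentation genes tested of 28 listed, 17 had fold changes above 0, with a median of 0.18 and none passing. Without pools 1 and 5, 3 of the 10 endothelial and 6 of the 20 interferon genes passed as higher, against 5.88% of all genes. Ctgf, which rose, was highest in pool 7 and lowest in pool 8 among the deletion-labelled pools, as was the summed level of the fibroblast markers. The part of the fibroblast and vascular markers in the other results was not tested.

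Astrocyte markers summed to 3057 to 3425 CPM in control and 2817 to 3014 CPM in deletion-labelled pools, without overlap, and Gja1 was the one of 16 that passed. Of all 45 lists, the mitochondrial mRNAs and ribosomal RNAs also had sums without overlap, and 7.77% of single genes had no overlap. Fold changes were below 0 for 10 of the 16 markers and above 0 for 6. The glutamate transporter Slc1a2 and the receptor Fgfr3 had log2 fold changes of -0.21 and -0.20, while Gfap, which rises in reactive astrocytes, had one of 0.25 (adjusted p = 0.138, 0.144 and 0.155). The median of the 16 was -0.073 here, and 0.024 on the scale of log2(TPM + 1), where that of all genes was 0.0815. With pools 1 and 5 left out, 5 of the 16 passed as lower and 2 as higher, beside 9.06% and 5.88% of all genes. In tanycytes, the glia that line the third ventricle, Vim and Dio2 had log2 fold changes of 0.41 and 0.30 and 10 of 11 markers tested of 13 listed were above 0, with a median of 0.11 and none passing. Markers of oligodendrocytes, their precursors, microglia, blood and pituitary had medians between -0.16 and 0.0060, and none of their genes passed.

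**Figure D4:**
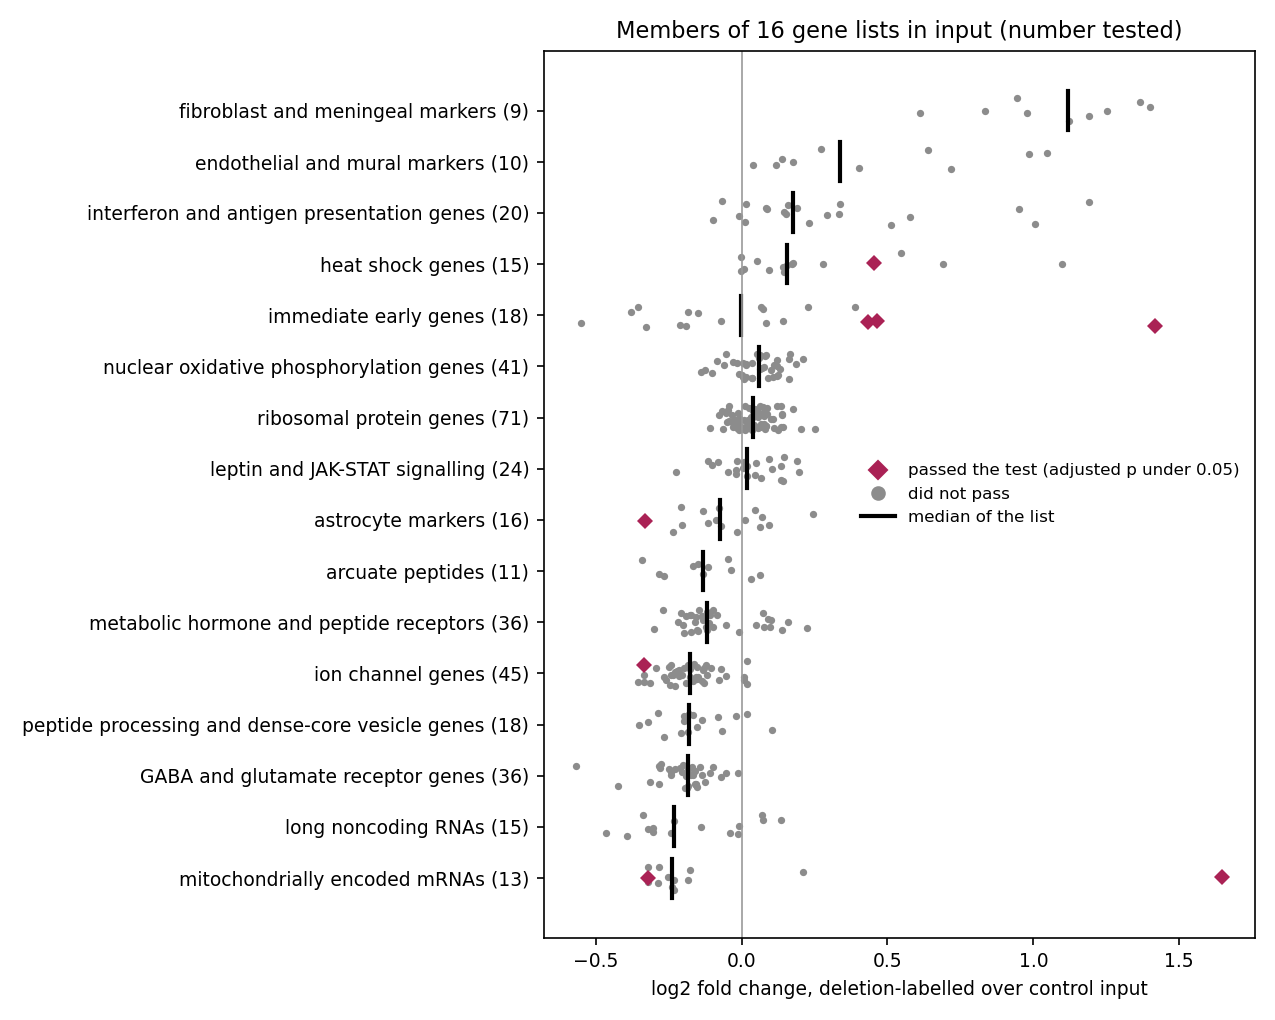
Log2 fold change in input (x axis) of every tested member of 16 gene lists (rows, number tested in brackets). Black bars are list medians, from 1.12 for fibroblast and meningeal markers to -0.24 for mitochondrial mRNAs, and diamonds mark the 8 members that passed.

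Genes of leptin signalling and the feeding peptides did not pass with all 8 pools. Of 24 leptin and JAK-STAT signalling genes tested of 26 listed, 16 had fold changes above 0, with a median of 0.018, and Socs1 and Socs3 were below the filter. When pools 1 and 5 were left out, where 5.88% of all genes passed as higher, 4 of the 24 did so. Stat3, the transcription factor that carries the leptin signal, was at 32.3, 31.7, 30.1 and 31.5 CPM in control pools and 33.6, 35.4, 34.8 and 34.1 CPM in deletion-labelled pools. Its groups did not overlap, but its adjusted p was 0.204 and its log2 fold change of 0.13 turned to -0.052 with counts rescaled for length. The adaptor gene Grb2, the insulin receptor substrate gene Irs1 and the repressor gene Bcl6 had log2 fold changes of 0.14, -0.22 and 0.19 (adjusted p = 0.179, 0.188 and 0.199).

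Of 11 arcuate peptide genes tested of 13 listed, 9 had fold changes below 0, with a median of -0.13. Without pools 1 and 5, 3 of the 11 passed as lower, as did 5 of 18 other hypothalamic peptide genes, beside 9.06% of all genes. Tac2, the neurokinin B gene, was at 10.8 to 12.3 CPM in control and 8.74 to 10.4 in deletion-labelled pools and Gal, the galanin gene, at 10.8 to 16.4 CPM in control and 10.9 to 13.5 in deletion-labelled pools (adjusted p = 0.165 and 0.291). Agrp, Npy, Pomc and Cartpt are given for their place in leptin biology and were chosen after the values were seen. The hunger peptide genes Agrp and Npy were at 3.1 ± 0.838 and 11.5 ± 1.82 CPM in control and 2.77 ± 0.278 and 11.7 ± 2.11 CPM in deletion-labelled pools (SD, n = 4). The satiety peptide genes Pomc and Cartpt were at 19.7 ± 3.77 and 27.9 ± 1.93 CPM in control and 20.6 ± 1.53 and 27.2 ± 0.672 CPM in deletion-labelled pools (SD, n = 4). The adjusted p of these 4 genes was 0.696, 0.934, 0.821 and 0.795, with SE of 0.179, 0.132, 0.112 and 0.0567 on the log2 scale. The sign of each turned when a single pool was left out, and for Npy this held for more than 1 pool. Outside the arcuate group, Hcrt, the orexin gene, was at 7.48, 17.3, 24.5 and 18.3 CPM in control pools and 14.2, 8.67, 11 and 7.7 CPM in deletion-labelled pools, where control pool 1 lay among the latter (adjusted p = 0.251). Adcyap1, the PACAP gene, was at 35.3 to 38.5 CPM in control and 31 to 33.8 in deletion-labelled pools (adjusted p = 0.199).

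Receptors for metabolic hormones and peptides had 27 of 36 fold changes below 0, with a median of -0.12 and none passing. With pools 1 and 5 left out, 9 of the 36 passed as lower, beside 9.06% of all genes. The insulin receptor gene Insr was at 41.7, 48.3, 42.9 and 49 CPM in control pools and 47.3, 36.7, 37.3 and 37.4 CPM in deletion-labelled pools, with pool 5 well above pools 6 to 8. The cholecystokinin receptor gene Cckbr and the oxytocin receptor gene Oxtr had log2 fold changes of -0.27 and -0.21. The GABA-synthesizing enzyme gene Gad2 was at 1062 to 1274 CPM in control and 1232 to 1468 in deletion-labelled pools, while the vesicular transporters for GABA and glutamate, Slc32a1 and Slc17a6, had log2 fold changes of -0.38 and -0.20 (adjusted p = 0.226, 0.263 and 0.207). Foxb1, a transcription factor of the mammillary bodies, was at 23.2, 20.3, 17.2 and 15.4 CPM in control pools and 12.8, 10.9, 14 and 14.2 CPM in deletion-labelled pools, and Zic1, a marker of thalamus and septum, at 23.8, 35, 27.6 and 31.1 and 39.5, 38.3, 38.1 and 35.7 CPM. The groups did not overlap in either gene, but neither passed (adjusted p = 0.0816 and 0.132). Of 9 thalamus and habenula markers tested 8 had fold changes above 0, and of 6 midbrain and mammillary markers 3 did.

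Clock genes follow the hour of the day, and glucocorticoid-responsive genes follow stress and the daily corticosterone rhythm. Per1, which glucocorticoids and light induce, was at 15.1, 17.1, 14.9 and 16.4 CPM in control pools and 19, 20.0, 19.1 and 19.8 CPM in deletion-labelled pools, with no overlap (log2 fold change 0.30, adjusted p = 0.0724). The clock repressor gene Nr1d2 was at 112, 113, 109 and 109 CPM in control and 92.9, 94.9, 94.5 and 103 CPM in deletion-labelled pools, and Dbp, a clock output gene, at 30.9 to 35.8 CPM in control and 25 to 32 in deletion-labelled pools (adjusted p = 0.0879 and 0.163). Errfi1 and Fkbp5, which respond to glucocorticoids, had log2 fold changes of 0.28 and 0.26 (adjusted p = 0.0724 and 0.163). Over the 20 clock genes the median was 0.0065 and none passed. Of 16 glucocorticoid-responsive genes tested, Mt2 passed, and it fell while 11 of the 16 had fold changes above 0. Vegfa, which hypoxia induces, was at 28 to 30.8 CPM in control and 22.6 to 26.1 in deletion-labelled pools (adjusted p = 0.0936).

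Nuclear genes of oxidative phosphorylation and of the cytosolic ribosome, most of them short, had mostly small values above 0. Of 41 oxidative phosphorylation genes 32 had fold changes above 0, with a median of 0.059 and none passing. Atp5b and Atp5a1, the catalytic core of the ATP synthase whose mitochondrially encoded partner mt-Atp6 fell, had non-overlapping groups. Atp5b was at 668 to 707 CPM in control and 749.7 to 843 in deletion-labelled pools and Atp5a1 at 473 to 497 CPM in control and 517 to 562 in deletion-labelled pools (adjusted p = 0.0825 and 0.126). Of 71 ribosomal protein genes 50 had fold changes above 0, with a median of 0.039 and none passing, among them Rplp0 (0.25) and Rps2 (0.20). In all, 36 of the 41 and 68 of the 71 genes belonged to the shortest quartile by effective length, where 60.6% of all genes had fold changes above 0. Long noncoding RNAs had 12 of 15 fold changes below 0 with a median of -0.23 and none passing. When pools 1 and 5 were left out, 7 of these passed as lower and 1 as higher, as against 8 oxidative phosphorylation and 13 ribosomal protein genes higher and 1 of the former lower. Over all genes, 9.06% passed as lower and 5.88% as higher in that fit. The imprinted RNA Rian was at 338 to 388 CPM in control and 291 to 326 in deletion-labelled pools, the imprinted snoRNA host gene Snhg14 at 113 to 126 CPM in control and 99 to 115 in deletion-labelled pools, and the nuclear RNA Malat1 at 7124 to 8609 CPM in control and 5486 to 7950 in deletion-labelled pools (adjusted p = 0.0755, 0.123 and 0.179).

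The pulldown libraries of the same pools gave a second reading of the 40 genes. It is not independent, since both libraries of a pool come from one lysate. In pulldown 102 genes passed (0.74% of the 13791), and 17 of the 40 were among them in the same direction, which is 42.5% of the 40 and 16.7% of the 102. None passed in the opposite direction, and 37 of the 40 had the same sign. The 40 include Gm13301, Gm28438 and mt-Nd3, which had pulldown libraries at 0. The share of all genes tested with the same sign in both readouts was not computed. Leaving out one pulldown library gave 9 to 25 of the 40, with 9 without pool 2, 6 or 7 and 11 without pool 4 or 8. Acer2 fell in pulldown too, from 8, 8.52, 7.38 and 7.07 CPM in control to 3.07, 2.56, 2.45 and 2.35 CPM in deletion-labelled pools (log2 fold change -1.57, SE 0.113, adjusted p = 7.47e-05). Snapc3, Adss, Dnajb1, Psip1, Nr4a3, Zscan26, Tusc1 and Adnp rose there and Wdfy1, Efcab7 and Kcnj3 fell, with adjusted p of 0.00211 for Snapc3 to 0.0474 for Psip1. Lepr, which had not passed in input, was higher in pulldown (log2 fold change 0.70, adjusted p = 0.0412).

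Other genes had different values in the 2 readouts. Gja1, lower in input, was at 4.67, 4.46, 3.94 and 4.6 CPM in control pulldown and 5.92, 5.34, 9.48 and 5.92 CPM in deletion-labelled pulldown, a log2 fold change of 0.59 (adjusted p = 0.0914), and its interaction of genotype with fraction had an adjusted p of 0.111. Rn7sk was at a log2 fold change of 0.03 in pulldown (interaction adjusted p = 0.308). mt-Nd3 was nearly absent from pulldown, at 0.535, 0, 0 and 0 CPM in control and 0.773, 0.908, 1.5 and 1.28 CPM in deletion-labelled pulldown, so no fold is given for it there. None of the 40 genes passed the test of that interaction, which 2 of the 13791 genes passed (0.0145%), Serpina3n and Aim2. At an unadjusted p under 0.05 there were 1407. With pool as a replicate block 4 genes passed, again none of the 40. Without pool 5 there were 59, and without pool 2 or pool 6 there was 1. Serpina3n, a protease inhibitor gene induced by STAT3 in AgRP neurons and reactive astrocytes, was at 12.4, 15.3, 14.7 and 16.8 CPM in control input and 17.8, 16.3, 15.3 and 15.8 CPM in deletion-labelled input. Its log2 fold change was 0.14 in input and -0.83 in pulldown, an interaction of -0.98 (SE 0.153, adjusted p = 0.0373). Aim2, a sensor of cytosolic DNA, was at 1.55 to 2.06 CPM in control and 2.4 to 2.79 in deletion-labelled pools in input, with a log2 fold change of 0.51 there and 2.20 in pulldown (interaction adjusted p = 0.00312).

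**Figure D5:**
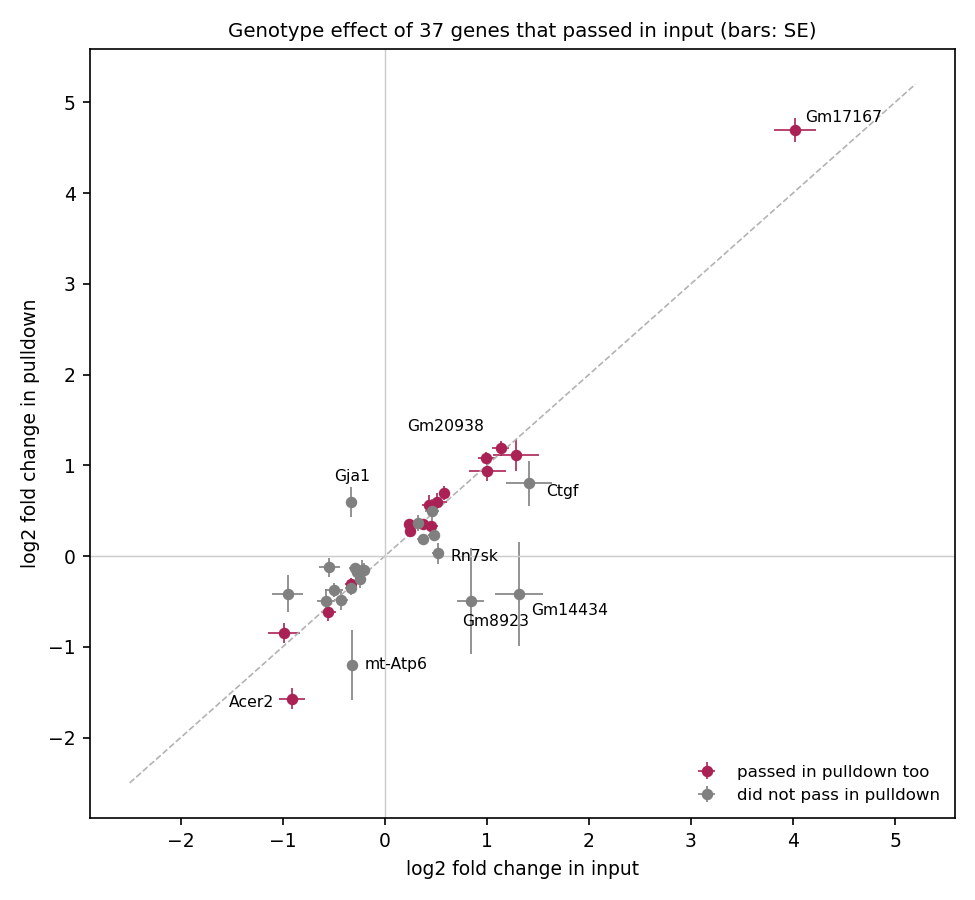
Log2 fold change of the deletion-labelled over the control pools in input (x axis) and in pulldown (y axis) for 37 of the 40 genes that passed in input, with bars of 1 SE and a dashed line of equal values. Gm13301, Gm28438 and mt-Nd3, which had pulldown libraries at 0, are left out; Gja1 sits above 0 in pulldown (0.59) and below 0 in input (-0.33).

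The authors' deposited table for the same comparison of input libraries gives adjusted p-values for 14164 genes, of which 329 (2.32%) were under 0.05, 182 higher and 147 lower. Of the 40 genes, 35 were under 0.05 in the authors' deposited table, all in the same direction, which is 87.5% of the 40 and 10.6% of the 329. The other 5, mt-Nd3, mt-Atp6, mt-Rnr1, mt-Rnr2 and Rn7sk, had no adjusted p in the authors' deposited table. DESeq2 run here on the same counts gave 360.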

How the data were processed

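Whole-hypothalamus input RNA of 8 pools, 4 per genotype label, was measured by RNA sequencing. The authors deposited estimated counts per gene from Salmon 1.10.1 on GRCm38, with TPM and length-rescaled estimated counts beside them, per the submitters' processing notes and the file headers. Which annotation release and strand setting were used is not given in the sources used here. The authors' deposited tables of comparisons hold log2 fold changes with adjusted p-values, and the processing notes name DESeq2 1.38.3 as a tool.

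Counts were rounded to whole numbers. Genes with a mean of at least 1 CPM over the 8 input libraries were tested with edgeR 4.0.16 in R 4.3.3 (quasi-likelihood test, TMM factors), with Benjamini-Hochberg adjustment over all 13791 genes and a threshold of 0.05. The SE is the size of the log2 fold change divided by the root of the F statistic. Pulldown libraries were fitted likewise on the same genes, and the difference of the genotype effects between fractions as an interaction over 16 libraries. Single values were compared with exact permutation tests over 70 assignments. The script was tested on simulated counts. Same-numbered input and pulldown libraries come from one lysate, per the labels' extraction protocol, so pool was used as a block for the interaction in an alternative fit; the correlation of their deviations was -0.015 to 0.32. Input pools of the 2 genotypes share no numbers. The library totals of 65066280 to 74726368 counts put the floor of 3 counts at 0.0395 to 0.0476 CPM; this covers counting error only.

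Members and gene lists were chosen with earlier results of these data known. Genes are named by a rule: Lepr, Leprot, Pnoc and Rpl10a; among called genes with ordinary symbols and a mean log2 CPM of at least 2, the 12 largest changes and the 5 smallest p in each direction; and up to 4 members per list with the smallest p. One gene that the rule names is not reported here. Positions and promoters came from RefSeq tables of GRCm38.p6, in which 32383 of 45706 rows matched by symbol and 1424 by synonym. Alternatives were other scalings, filters, DESeq2 1.42.0, limma 3.58.1 on log2(TPM + 1) and log2(TPM + 0.1), removal of mitochondrial genes and leaving out pools.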

Additional observations from a re-analysis of the deposited data

Results flagged for a closer look

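In 21 of 332 groups of 4 input pools, 1 pool lay apart from the other 3 by more than Dixon's critical value for 4 samples, which chance exceeds in about 1 in 20 groups. Pool 5 accounted for 8 of them, pool 8 for 4, pool 1 for 3, pools 2 and 7 for 2 each, and pools 4 and 6 for 1 each.

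In pool 5, the summed level was 3487 CPM for GABA and glutamate receptor genes (2844 to 2905 in pools 6 to 8), 2314 CPM for ion channel genes (1858 to 1906) and 10260 CPM for pan-neuronal genes (9577 to 9649). Single genes apart in pool 5 were Insr at 47.3 CPM (36.7 to 37.4 in the others), Slc32a1 at 14.95 CPM (12.1 to 12.4), Snhg14 at 115.5 CPM (99.02 to 99.62), Ier5 at 21.5 CPM (24.0 to 24.5) and Atp6v1g1 at 85.5 CPM (96.5 to 98.4). The neuronal genes were higher there than in pools 6 to 8, while Atp6v1g1, which rose, was still above every control.

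In pool 8, ER and amino acid stress genes summed to 942.9 CPM (1009 to 1019 in the other deletion-labelled pools) and clock genes to 1474 CPM (1372 to 1388). The leptin-induced repressor gene Bcl6 was at 30.5 CPM there (27.0 to 27.5), and Leprot at 7.72 CPM (8.63 to 8.80). In pool 7, endothelial and mural markers summed to 64.6 CPM (37.6 to 41.6), and Hspa1a was at 10.9 CPM (6.24 to 6.88). Gabra4 was at 19.8 CPM in pool 6 (20.9 to 21.2).

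Among controls, pool 1 was apart in endothelial and mural markers (45.8 CPM, others 36.3 to 36.9), Gm28438 (62.7 CPM, others 48.9 to 50.9) and Pcsk1 (16.6 CPM, others 23.8 to 24.9). Pool 2 was apart in Mt2 (43.8 CPM, others 50.3 to 51.3) and Pcsk5 (9.74 CPM, others 8.57 to 8.77), and pool 4 in Leprot (9.67 CPM, others 7.34 to 7.65).

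The genotype difference of 2 genes was not the same in pulldown and input by the interaction test: the pulldown value minus the input value was 1.67 on the log2 scale for Aim2 and -0.98 for Serpina3n (edgeR, adjusted p = 0.00312 and 0.0373).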

How the results depend on the processing

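The count of 40 genes was 39 with DESeq2's size factors inside edgeR, 41 with edgeR's own filter, 33 without mitochondrial genes and 41 with limma on log2(TPM + 0.1). It was 183 with library totals, 261 with no filter, 360 with DESeq2, 13 with length-rescaled counts, 88 with limma on log2(TPM + 1), 67 with all 16 libraries in one fit, and 18 to 456 when one pool was left out. Without pools 1 and 5 it was 2060. The fit without mitochondrial genes leaves out mt-Nd3, mt-Atp6, mt-Rnr1 and mt-Rnr2, which are among the 40. The share higher was 89.1% with library totals, 76.9% with length-rescaled counts, 95.5% and 97.6% with limma at pseudocounts of 1 and 0.1, and 33.9% to 61.1% when one pool was left out. The cause of these shifts was not tested.

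Of the 40 genes, 37 passed with library totals, 40 with DESeq2, 12 with length-rescaled counts and 24 with limma on log2(TPM + 1). The mitochondrial ribosomal RNA share in input differed by -3.28 to -2.56 percentage points when one pool was left out, where 0.0571 is the smallest exact p possible.

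Directions turned for genes that did not pass. Stat3 was at -0.0524 with rescaled counts, and when one pool, or pools 1 and 5, were left out Agrp ranged from -0.268 to 0.0379, Pomc from -0.0364 to 0.182, Npy from -0.101 to 0.134, Cartpt from -0.0781 to 0.00206 and mt-Nd4l from -0.0647 to 0.353. The value turned without pool 4 for Agrp and Cartpt, pool 1 for Pomc, pools 2 (-0.0554) and 8 for Npy, and pool 5 (-0.0575) for mt-Nd4l. Library totals and limma at pseudocounts of 1 and 0.1 shift the median of all genes to 0.0676, 0.0815 and 0.093. Cartpt was then at 0.0329, 0.0727 and 0.0738, Rpl10a at 0.037, 0.0762 and 0.0765, and Pnoc at 0.00694 and 0.00853 with limma, above 0 but each below that shifted median.

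The interaction gave 2 genes, 4 with pool as a replicate block, 4 with library totals and 1 to 59 when one pool was left out. The block applies to no other result, since input pools of the genotypes share no numbers. The count of the 40 genes that passed in pulldown was 17, and 9 to 25 when one pulldown library was left out. Genes near the filter of 1 CPM rest on the fewest counts of those tested, and how small a difference could be detected in them was not tested.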
